A study of Mus musculus with 24 samples.

Results

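The response of male-derived airway cultures to cigarette smoke was measured in 12 libraries, 6 inserts under smoke against 6 under air. They make up 12 of the 24 libraries of the series, which also holds female-derived cultures, and were fitted on their own. Every gene with a mean normalised read count of at least 10 over these 12 libraries was tested, which kept 13262 of the 25239 genes in the deposited table. A gene below that mean in air could pass only through smoke, and a gene below it in smoke only through air. The mean of such a gene could only be higher in the group that carried it.

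The cells were primary mouse tracheal epithelial cells from male mice of the FVB/NJ strain, wild-type and 7 to 8 weeks of age, grown on culture inserts and differentiated for 10 to 14 days with their upper side facing air. From then on the 2 groups differed by exposure. The smoke group had 10 days of exposure to cigarette smoke, each session burning 2 cigarettes over about 8 minutes, and the control group had humidified air. The labels number the inserts 1 to 6 in each group and name neither mice nor cell preparations. The p-values below therefore measure only the spread between inserts, which may be technical.

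Epithelium of the mouse trachea is built from basal cells, which are its stem cells, and from the club, goblet and multiciliated cells they give rise to, with rare ionocytes, tuft and neuroendocrine cells among them. Club cells carry much of the airway's metabolism of inhaled chemicals, through cytochrome P450 and flavin-containing monooxygenases, while multiciliated cells move the mucus that traps particles. Polycyclic hydrocarbons in smoke are ligands of the aryl hydrocarbon receptor, a transcription factor that switches on a small battery of genes including Cyp1a1. Repeated injury can replace the ciliated and secretory surface with a stratified one that makes squamous keratins and cornified envelope proteins.

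Between 16038813 and 24485024 reads were assigned to genes in the 11 libraries whose read counts could be recovered. Sex-linked genes fitted the male label in all 12 libraries, with Xist between 1.04 and 10.6 normalised counts and the Y-linked genes summing to 3949 to 4446. Markers of other tissues were uneven. Ms4a1 was 0 in every insert, and Adgre1 and Cdh5 did not exceed 0.923, while Pecam1, an endothelial marker, reached 30.5, the myeloid receptor gene Csf1r 18.6 and the myeloid integrin gene Itgam 436, all in smoke, and the fibroblast markers Col1a2 and Pdgfra reached 42.4 and 20.7 in air. Ptprc, the pan-leukocyte marker, reached at most 8.31. The basal keratin Krt5 was at 38677 to 52890 in air. Inserts 1 to 3 and inserts 4 to 6 separated from each other within both groups, although the labels name no batch, so fold changes are also given within each set. The difference between the sets was not tested. Smoke insert 1 stood furthest from its group, with 1081 genes more than 2-fold from the group median, against 152 to 673 in the other smoke inserts and 55 to 175 in the air inserts.

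Smoke changed many of the expressed genes, in both directions. With limma and Benjamini-Hochberg adjustment, 6109 genes (46.1%) passed an adjusted p of 0.05, of which 2870 (21.6%) were higher and 3239 (24.4%) lower in smoke. Changes of at least 2-fold were seen for 1251 of them, 435 up and 816 down. The 6 smoke and 6 air values did not overlap for 3400 genes (25.6%), with smoke above air for 1483 (11.2%) and below air for 1917 (14.5%). The median log2 fold change of all genes tested was -0.004. These shares are the background for the gene groups below, since a share of 46.1% called is that of the whole table. One fit over all 24 libraries, which shares the spread of the female cultures, called 2956 genes. Of the genes named below, it no longer called Bpifa1, Dnah5, Scgb1a1, Col4a1, Col4a6, Lama3, Cxcl17, Erbb3, Notch3, Gclc, Txn1, Xbp1, Col6a2 and Pdgfra, with adjusted p from 0.0501 to 0.346. Within inserts 1 to 3 alone 5370 genes passed and within inserts 4 to 6 alone 4278. Both sets called 2757 genes, 2664 of them with the same sign. Changes were larger in the first set: over all called genes the median size of the log2 fold change was 0.66 in inserts 1 to 3 and 0.33 in inserts 4 to 6.

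**Figure D1:**
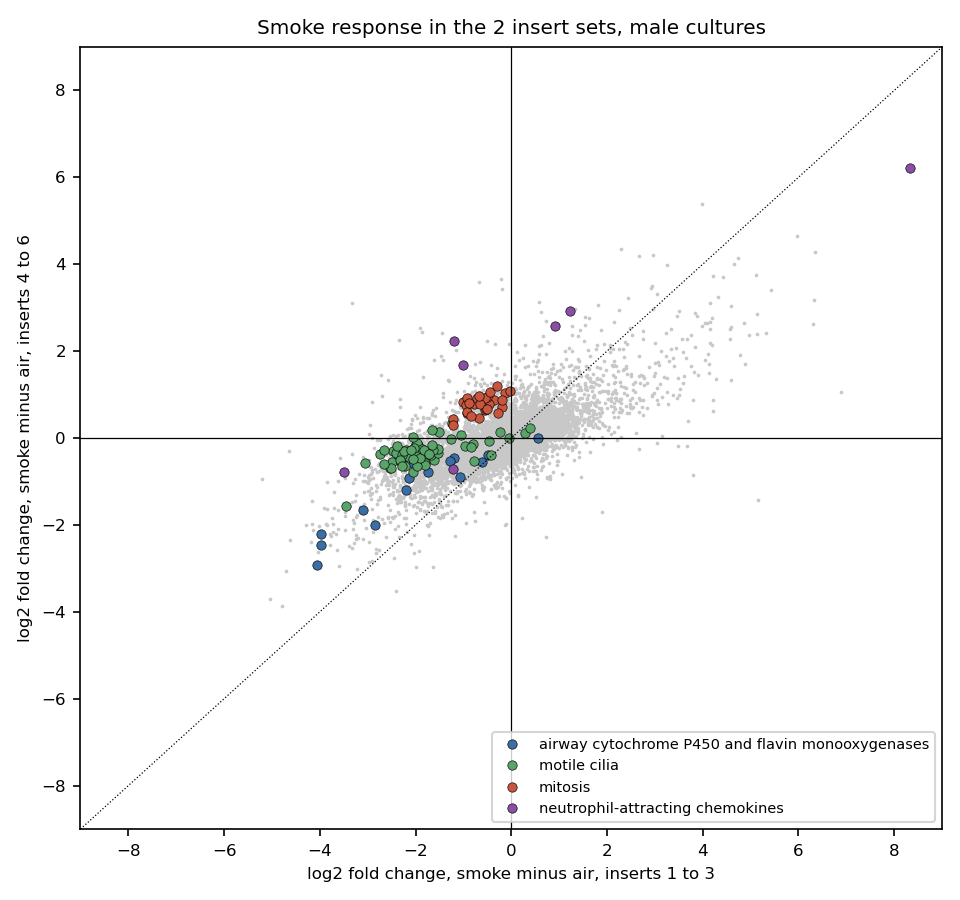
Log2 fold change of smoke against air within inserts 1 to 3 (x axis) and within inserts 4 to 6 (y axis) for each of the 13262 genes tested (grey points), with the members of 4 gene lists in colour; the dotted line marks equal change. Most cytochrome P450 and monooxygenase genes lie below 0 on both axes, most cilia genes lie far to the left and only slightly below 0, and all 28 mitosis genes lie left of 0 on the x axis and above 0 on the y axis.

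Levels are given as normalised counts, with the lowest and highest insert and the median. The 12 largest rises included inflammatory, antimicrobial, squamous and xenobiotic genes. Ppbp was at 18.6 to 54.1 (median 23.4) normalised counts in air and 2549.9 to 15970.2 (median 3443) in smoke. It encodes the platelet basic protein chemokine that draws neutrophils. The groups did not overlap. The log2 fold change was 7.27 ± 0.43, adjusted p = 1.1e-06. The gene lies on chromosome 5 of mm10 from 90768517 to 90770062, on the forward strand. Krt6b, a keratin of wounded and squamous epithelium, was at 0 to 10.1 (median 4.12) in air and 87.4 to 293 (median 173) in smoke, a change of 5.32 ± 0.50, adjusted p = 1.6e-05. Pglyrp4, a peptidoglycan recognition protein, had no reads in 3 of the air inserts and at most 5.62 normalised counts in the others. In smoke it was at 39.6 to 139 (median 82.3), a change of 5.31 ± 0.50, adjusted p = 1.7e-05. S100a7a, an antimicrobial calcium-binding protein of the psoriasin family, rose from 1.64 (0.788 to 4.38) in air to 68.5 (12.9 to 578) in smoke, a change of 4.46 ± 0.78 (adjusted p = 0.00081). All 6 smoke values of each of these genes lay above all 6 air values.

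Il24, a cytokine of the IL-10 family, had no reads in 4 air inserts and reached 2.21 in the highest. In smoke it was at 16.2 to 213 (median 17.8), with 213 in insert 1 and 35.1 in the next highest, insert 3 (4.44 ± 0.61, adjusted p = 0.00018). Cst6, a protease inhibitor of the cornified layer, was at 13.9 to 39.4 (median 26.2) in air and 238 to 919.6 (median 578) in smoke (4.33 ± 0.35, adjusted p = 6.7e-06). The remaining large rises were those of the BCL2 family gene Bcl2l15 (4.07 ± 0.39), the phosphatase gene Ptpn22 (3.996 ± 0.48), the myosin light chain gene Myl7 (3.87 ± 0.59), Dynap (3.81 ± 0.39) and the beta-tubulin gene Tubb3 (3.78 ± 0.54). Ptpn22 was at 48.6 to 325 (median 55.8) in smoke, and its highest value, as for all 12 rises, came from insert 1. None of these genes lost its call when any single insert was left out.

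Of the 12 largest falls 11 are described, led by Dcn, which encodes the matrix proteoglycan decorin. It was at 57.7 to 314 (median 125) in air and 0 to 12.1 (median 7.12) in smoke, a change of -4.37 ± 0.64, adjusted p = 0.00027. The gene lies on chromosome 10 of mm10 from 97479499 to 97518163, on the forward strand. Decorin is also a fibroblast marker. Of 17 fibroblast and matrix markers 10 were measured, and 5 fell and 1 rose (60% called, beside 46.1% in the table). The log2 fold change was above 0 for 4 of the 10 and below 0 for 6. Their summed level was 2029 to 2550 in air and 1556 to 4155 in smoke. Lum was at most 2.21 and Col1a1 at most 5.54 in any insert. The markers named next are among those of the list that were lower in smoke. Pdgfra was at 13.9 to 20.7 in air and 2.38 to 10.2 in smoke (-1.20 ± 0.29, adjusted p = 0.0055). The collagen VI genes Col6a1 (-1.53 ± 0.33, adjusted p = 0.0031) and Col6a2 (-1.55 ± 0.24, adjusted p = 0.00043) fell. Col1a2, below the mean of 10, was at 5.62 to 42.4 in air and 0 to 3.53 in smoke. The part of fibroblasts in the fall of Dcn was not tested. In 1 fit over all 24 libraries 3 members of that list were called. Akr1c14, a hydroxysteroid dehydrogenase of the aldo-keto reductase family, was at 2055 to 4816 (median 3556) in air and 68.8 to 363 (median 182) in smoke (-4.32 ± 0.34, adjusted p = 6.3e-06). The groups did not overlap. Slc6a15, a neutral amino acid transporter, fell from 528 (333 to 870.1) in air to 35 (20.3 to 56.7) in smoke, a change of -3.88 ± 0.28 (adjusted p = 3.9e-06). Gfra1, a receptor subunit for glial cell line-derived neurotrophic factor, fell from 1253 (1020.2 to 1641) in air to 156 (54.8 to 247) in smoke, a change of -3.29 ± 0.32 (adjusted p = 1.8e-05). Fads2b, of the fatty acid desaturase family, was at 4623 to 10517 (median 6924) in air and 504 to 1295 (median 677) in smoke (-3.26 ± 0.27, adjusted p = 7.9e-06). Aspg, an asparaginase, was at 143 to 198 (median 172) in air and 15.7 to 22.2 (median 18.1) in smoke (-3.12 ± 0.13, adjusted p = 6.9e-08). Gpnmb (-3.33 ± 0.40) and Adamtsl1 (-3.12 ± 0.25) fell as well, and Cyp2a5, Fmo6 and Gmnc are described with their gene groups. All 23 genes changed in the same direction in both insert sets, and all 23 changed more in inserts 1 to 3.

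**Figure D2:**
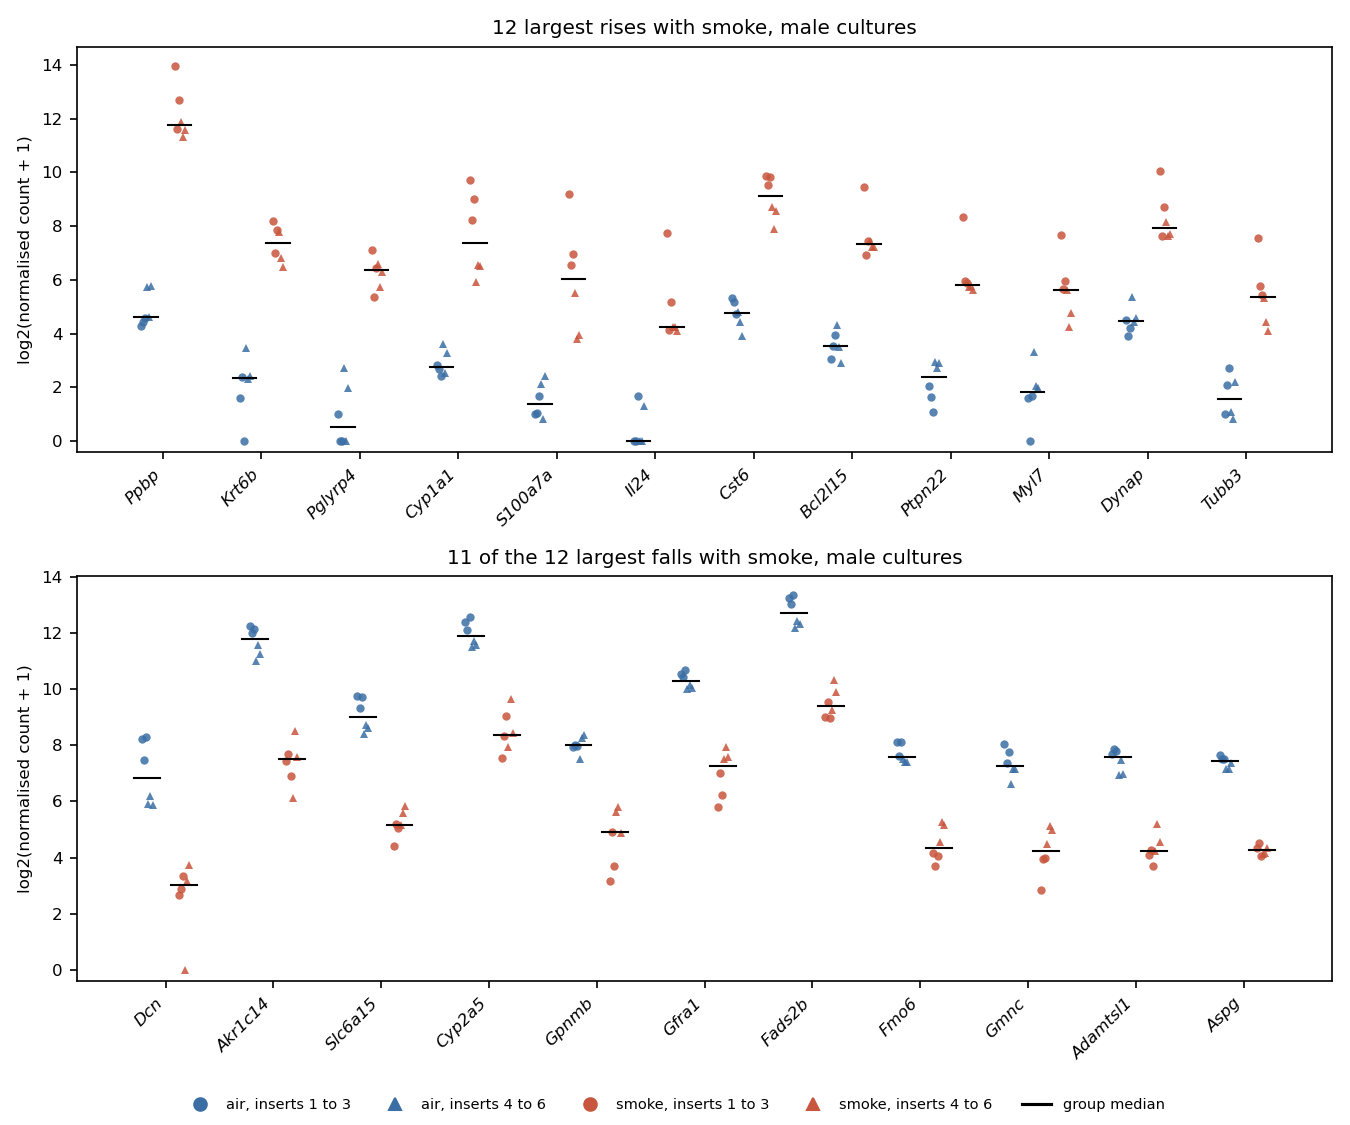
Log2(normalised count + 1) of the 12 genes with the largest rise (top) and 11 of the 12 with the largest fall (bottom) in each of the 6 air (blue) and 6 smoke (red) inserts; circles are inserts 1 to 3, triangles inserts 4 to 6 and black bars group medians. Smoke and air points do not overlap for any of the 23 genes, and smoke insert 1 is the highest point for each of the 12 rises.

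Genes of the xenobiotic response moved in opposite directions. Classical targets of the aryl hydrocarbon receptor rose, while most P450 and monooxygenase genes of the airway and many transferase and aldehyde-metabolising genes fell. Of 11 measured genes of the receptor and its targets, 6 rose and 0 fell (54.5% called, beside 46.1% in the table), with a median log2 fold change of 0.89. Cyp1a1, the inducible P450 that serves as the standard readout of receptor activity, was at 4.42 to 11.2 (median 5.79) in air and 59.9 to 829 (median 196) in smoke (4.76 ± 0.59, adjusted p = 8.5e-05). The gene lies on chromosome 9 of mm10 from 57687927 to 57703824, on the forward strand. Ahrr, the receptor's repressor, was at 0 to 3.22 (median 2.22) in air and 12.9 to 68 (median 22) in smoke (3.37 ± 0.47, adjusted p = 0.00019). Cyp1b1, a second inducible P450, was at 3605 to 4284 (median 4218) in air and 10205 to 23751 (median 16027) in smoke (2.01 ± 0.17, adjusted p = 9e-06). Tiparp, an ADP-ribosyltransferase that limits receptor signalling, was at 544 to 975 (median 722) in air and 1669.9 to 4577 (median 2526) in smoke (1.80 ± 0.26, adjusted p = 0.00025). The groups of these 4 genes did not overlap. Cyp1a1 and Ahrr reached the mean of 10 only through smoke and so could only be counted as rises. Within the sets Cyp1a1 rose by 6.33 in inserts 1 to 3 and by 3.18 in inserts 4 to 6. Nqo1, a quinone reductase, was at 757 to 1519.7 (median 1082) in air and 909 to 4105 (median 2295) in smoke; its groups overlapped and it did not pass (0.89 ± 0.42, adjusted p = 0.097). It passed without smoke insert 4 (adjusted p = 0.0418). It also passed in each insert set alone (log2 fold changes of 1.41 and 0.36) and with edgeR and DESeq2 on the recovered reads (adjusted p = 0.0221 and 0.0121). The receptor gene Ahr did not pass either (-0.39 ± 0.17, adjusted p = 0.072). It passed without smoke insert 4 (adjusted p = 0.0422) or smoke insert 5 (adjusted p = 0.0318).

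Of 15 measured airway P450 and flavin monooxygenase genes, 14 fell and 0 rose (93.3% called, beside 46.1% in the table), with a median of -1.32. The smoke and air groups did not overlap for 12 of them, all with smoke below air. Over all genes tested 25.6% did not overlap, and 14.5% had smoke below air without overlap. Cyp2a5, which oxidises nicotine, was at 2889 to 6108 (median 3875) in air and 185 to 799.9 (median 331) in smoke (-3.49 ± 0.32, adjusted p = 1.4e-05). Cyp2f2, the abundant P450 of mouse club cells, fell from 209207 (177293 to 248672) in air to 79940.3 (37178 to 115775) in smoke, a change of -1.53 ± 0.28 (adjusted p = 0.0011). Cyp4b1 fell from 21718 (18365 to 25446) in air to 4448 (2409.8 to 7255) in smoke, a change of -2.38 ± 0.25 (adjusted p = 2.8e-05). Cyp2b10 fell from 2401 (1615 to 2824) in air to 507 (198 to 649) in smoke, a change of -2.43 ± 0.27 (adjusted p = 3.8e-05). Por, the reductase that hands electrons to microsomal P450s, fell by less, from 24916 (23444 to 26157) in air to 16808 (13046 to 20091) in smoke, a change of -0.59 ± 0.10 (adjusted p = 0.00073). Among the flavin monooxygenases, Fmo6 fell by 3.22 on the log2 scale, Fmo2 by 1.70 and Fmo1 by 1.32. Cyp3a13 alone was not called (0.27 ± 0.13, adjusted p = 0.09). It passed without smoke insert 5 (adjusted p = 0.0466) or smoke insert 6 (adjusted p = 0.0277). The falls of this group were seen in both sets, with medians of -2.06 in inserts 1 to 3 and -0.90 in inserts 4 to 6.

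Conjugating and aldehyde-clearing enzymes fell in part. Of 23 measured glutathione transferases, 11 fell and 2 rose (56.5% called, beside 46.1% in the table). Gstt1 fell from 186 (130.0 to 273) in air to 46.3 (17.7 to 61.8) in smoke, a change of -2.16 ± 0.30 (adjusted p = 0.0002). Gstm2 fell from 8716 (7734 to 10524) in air to 2279.8 (1689.8 to 3656) in smoke, a change of -1.88 ± 0.15 (adjusted p = 6.3e-06). Gstm1 fell from 21670.0 (18768 to 26339) in air to 7745 (6260.4 to 10606) in smoke, a change of -1.43 ± 0.14 (adjusted p = 1.9e-05). Gstm1 and Gstm2 are near copies of each other, so reads may have been split between them. Gsta1 rose from 87 (29.2 to 156) in air to 511 (116 to 1550.4) in smoke, a change of 2.39 ± 0.68 (adjusted p = 0.012), and its groups overlapped. Of 20 aldo-keto reductases, aldehyde dehydrogenases and alcohol dehydrogenases, 13 fell and 2 rose (75% called, beside 46.1% in the table). The fit over all 24 libraries called 9. Adh1 fell from 2439.9 (1965 to 2949.9) in air to 407 (186 to 594) in smoke, a change of -2.74 ± 0.25 (adjusted p = 1.2e-05). Aldh1a1, a retinaldehyde dehydrogenase, fell from 17044 (12299.7 to 25247) in air to 6076 (1988 to 10632) in smoke, a change of -1.64 ± 0.35 (adjusted p = 0.0028). Akr1b8 rose from 881 (796 to 891) in air to 1354 (1029.8 to 2277) in smoke, a change of 0.71 ± 0.16 (adjusted p = 0.0035).

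**Figure D3:**
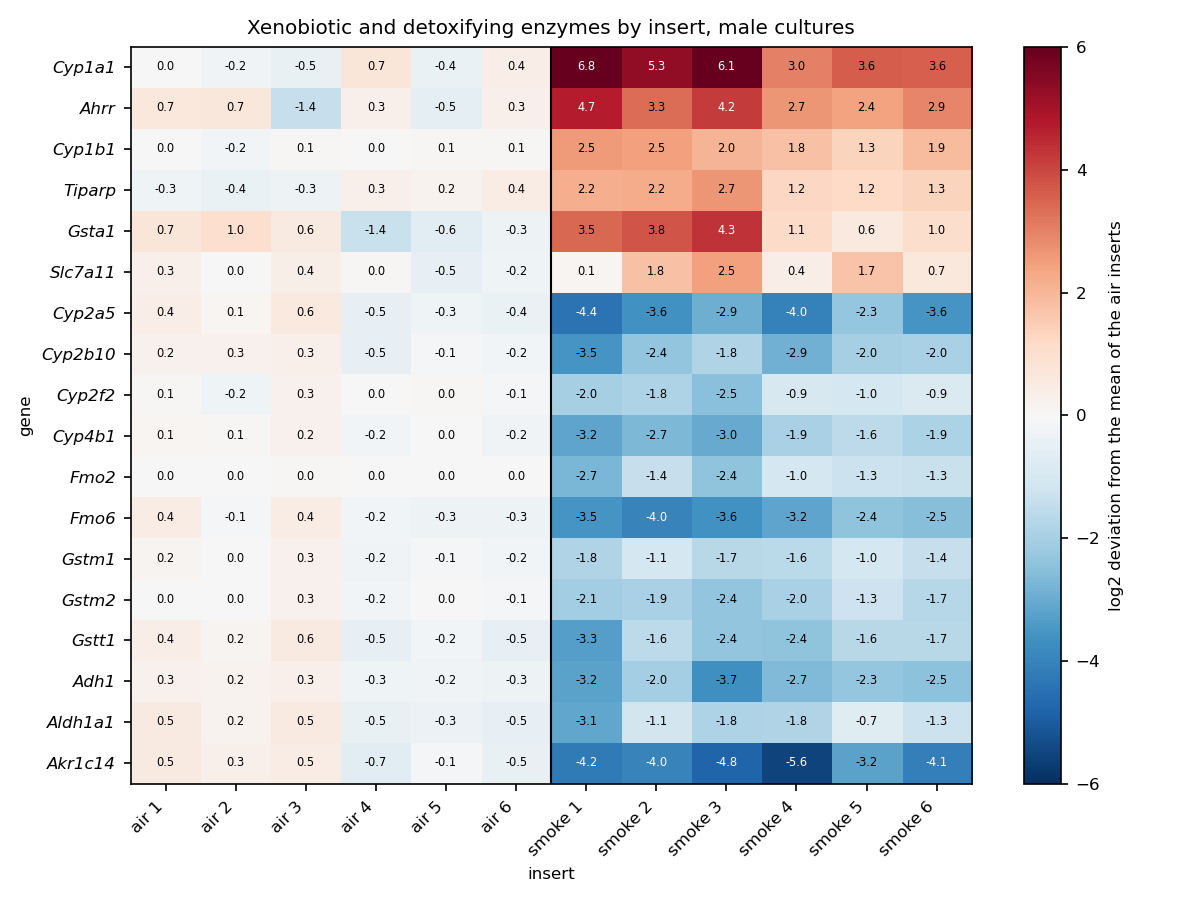
Log2 deviation of 18 xenobiotic and detoxifying genes from the mean of the 6 air inserts (colour and printed value), by gene (rows) and insert (columns, air then smoke). The first 5 genes are raised in all 6 smoke inserts, more so in inserts 1 to 3, and the 12 genes from Cyp2a5 down are lowered in all 6.

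Antioxidant genes under the control of NRF2 moved in both directions. Of 33 measured, 6 rose and 5 fell, a share called of 33.3%, beside the 46.1% of the whole table. The number called depended on the fit: it was 18 with DESeq2 on the recovered reads, 16 in inserts 1 to 3, 17 in inserts 4 to 6 and 4 in 1 fit over all 24 libraries. Slc7a11, the cystine importer that feeds glutathione synthesis, was at 670.0 to 1207 (median 939) in air and 1004 to 5149.7 (median 2270.5) in smoke (1.19 ± 0.35, adjusted p = 0.016); smoke insert 1 lay inside the air range. Gclc, the catalytic subunit of the first enzyme of glutathione synthesis, rose from 6772 (6051 to 7477) in air to 9402 (7863 to 18712) in smoke, a change of 0.68 ± 0.20 (adjusted p = 0.015). Txn1, thioredoxin, rose from 2594 (2471 to 2705) in air to 3896 (2930.2 to 6716) in smoke, a change of 0.70 ± 0.20 (adjusted p = 0.012). In 1 fit over all 24 libraries neither Gclc nor Txn1 passed (adjusted p = 0.0513 and 0.154). Hmox1, heme oxygenase, was at 847 to 1364 (median 1006) in air and 1019 to 8397 (median 1879) in smoke and did not pass (1.04 ± 0.42, adjusted p = 0.055). Its highest value was in smoke insert 3. It passed without smoke insert 4 (adjusted p = 0.0251), smoke insert 5 (adjusted p = 0.0383) or smoke insert 6 (adjusted p = 0.039). It also passed in each insert set alone (log2 fold changes of 1.69 and 0.39), in 1 fit over all 24 libraries, and with edgeR and DESeq2 on the recovered reads (adjusted p = 0.0128 and 0.00391). Without smoke insert 4 the list had 10 genes up and 3 down, and without air insert 3, 4 or 5 it had 3 down. Of the zinc importers, Slc39a14 rose by 0.73 and Slc39a8 fell by 0.77 on the log2 scale.

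Genes that start the multiciliated programme and structural genes of motile cilia fell, with larger changes in inserts 1 to 3 for both. In bulk RNA a smaller number of cells of a type and less RNA per cell cannot be told apart, here and for the cell groups that follow. Of 15 measured regulators of multiciliated cells, 10 fell and 2 rose (80% called, beside 46.1% in the table), with a median of -1.13. Gmnc, the geminin relative at the head of the programme, was at 97.9 to 263 (median 152) in air and 6.18 to 33.6 (median 17.9) in smoke (-3.13 ± 0.36, adjusted p = 5.6e-05). The gene lies on chromosome 16 of mm10 from 26957234 to 26991652, on the reverse strand. Mcidas, the second of that family, was at 16.9 to 94.3 (median 56) in air and 1.77 to 14.6 (median 6.18) in smoke (-2.81 ± 0.50, adjusted p = 0.00095). Foxn4 was at 5.11 to 65.3 (median 28.8) in air and had no reads in 3 smoke inserts (-3.49 ± 0.69, adjusted p = 0.0018), and Cdc20b, the host gene of ciliogenic microRNAs, was at 12.4 to 63.2 (median 30.8) in air and 0 to 5.93 (median 1.72) in smoke (-3.51 ± 0.61, adjusted p = 0.0008). Deup1, needed to make many centrioles at once, fell from 109 (40.5 to 199.9) in air to 15.1 (2.65 to 29.3) in smoke, a change of -2.94 ± 0.63 (adjusted p = 0.0028). The air and smoke values of these 5 genes did not overlap. Foxj1, the master factor of motile cilia, was at 886 to 1829.5 (median 1343) in air and 103 to 1166 (median 846) in smoke; the groups overlapped and it did not pass (-1.13 ± 0.49, adjusted p = 0.075). It passed without smoke insert 5 (adjusted p = 0.0456). The regulators fell in both sets, with medians of -2.04 in inserts 1 to 3 and -0.33 in inserts 4 to 6. Without smoke insert 1 the median over all inserts was -0.65.

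Of 67 measured motile cilia genes, 31 fell and 1 rose, with a median of -1.19; 47.8% were called, close to the 46.1% of the table. The fall was larger in the first set, with a median of -1.97 in inserts 1 to 3 and -0.34 in inserts 4 to 6, where 3 genes fell. Dnah5, an outer dynein arm heavy chain, was at 1542 to 2728 (median 2003) in air and 63.6 to 1750.0 (median 782) in smoke, and the groups overlapped (-1.81 ± 0.61, adjusted p = 0.027). Without air insert 1, 2 or 3 it no longer passed, with adjusted p values of 0.054, 0.055 and 0.052, and without smoke insert 1 its change was -1.19. Tubb4b, a ciliary tubulin also used elsewhere in the cell, rose from 9509 (9127 to 10089) in air to 12427 (9815 to 13034) in smoke, a change of 0.31 ± 0.07 (adjusted p = 0.005). Smoke insert 1 had the lowest cilia expression, with a median deviation of -3.55 from the air mean, against -1.05 to -0.07 in the other smoke inserts. Without it, 44 cilia genes fell and the median was -0.69. Without air insert 1, 2 or 3 the number that fell was 12, 13 or 12, and with 1 fit over all 24 libraries it was 1.

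Many secretory and ionocyte genes fell too. Of 21 measured club and secretory genes, 14 fell and 1 rose (71.4% called, beside 46.1% in the table), with a median of -0.92. With all 24 libraries in 1 fit the number called was 8. Scgb3a2, a secretoglobin, fell from 29254 (25128 to 44689) in air to 5035 (3389 to 14301) in smoke, a change of -2.49 ± 0.29 (adjusted p = 6e-05). Bpifa1, a surfactant-like antimicrobial protein of airway fluid, fell from 234226 (149583 to 359428) in air to 45880.5 (14274 to 130228) in smoke, a change of -2.39 ± 0.43 (adjusted p = 0.00094). Scgb1a1, the classical club cell protein, was at 5169 to 13932 (median 7537) in air and 1539 to 6742 (median 4084) in smoke, and the groups overlapped (-1.17 ± 0.39, adjusted p = 0.028). It did not pass without air insert 1 (adjusted p = 0.0638), air insert 2 (adjusted p = 0.0537), air insert 3 (adjusted p = 0.0643), smoke insert 1 (adjusted p = 0.0525), smoke insert 4 (adjusted p = 0.0517) or smoke insert 6 (adjusted p = 0.0531). It did not pass in inserts 4 to 6 alone (adjusted p = 0.127) or in 1 fit over all 24 libraries (adjusted p = 0.346) either. Reg3g, an antibacterial lectin, fell from 1169.7 (821 to 1232) in air to 224 (48.6 to 479) in smoke, a change of -2.66 ± 0.48 (adjusted p = 0.00095). Surfactant genes took part: Sftpb fell from 202 (164 to 273) in air to 42.3 (23.3 to 102) in smoke, a change of -2.28 ± 0.31 (adjusted p = 0.00016), and Sftpa1 was at 1998 to 7984 (median 4394) in air and 98.2 to 2458 (median 499.6) in smoke (-3.08 ± 0.70, adjusted p = 0.0039). The log2 fold change of Sftpa1 was -5.21 in inserts 1 to 3 and -0.95 in inserts 4 to 6.

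Of 9 measured ionocyte genes, 8 fell and none rose (88.9% called, beside 46.1% in the table), with a median of -1.49. Foxi1, the factor that specifies ionocytes, was at 28.1 to 47.6 (median 36.5) in air and 1.77 to 18.8 (median 13.1) in smoke (-1.97 ± 0.47, adjusted p = 0.0054), and Ascl3 at 22.9 to 45.1 (median 32.7) and 4.42 to 17.4 (median 11.2) (-1.49 ± 0.29, adjusted p = 0.0017). Both genes had no overlap between groups. Atp6v0d2, a subunit of the proton pump, fell from 70.8 (56.2 to 112) in air to 17 (8.83 to 33.2) in smoke, a change of -2.09 ± 0.33 (adjusted p = 0.00041). Cftr, the chloride channel enriched in these cells, was at 129 to 229.6 (median 185) in air and 30.9 to 152 (median 92.1) in smoke, with overlap (-1.22 ± 0.34, adjusted p = 0.011). Of 8 tuft cell genes 3 fell (37.5% called, beside 46.1% in the table). Among them was Dclk1, a microtubule-associated kinase, which fell from 3819.9 (3313 to 4231) in air to 1319 (852 to 1762) in smoke, a change of -1.60 ± 0.17 (adjusted p = 2.8e-05). Goblet genes showed no common direction over all 12 inserts, with 3 up and 2 down of 14 (35.7% called, beside 46.1% in the table). In inserts 1 to 3 alone 2 rose and 6 fell (median -0.62), and in inserts 4 to 6 alone 5 rose and 1 fell (median 0.39). For 11 of the 14, smoke inserts 1 to 3 all lay below smoke inserts 4 to 6. The fit over all 24 libraries called 2. The number up was 1 without air insert 1, 2 or 3 or smoke insert 4 or 6, and 5 without smoke insert 3. Gp2 rose from 8.31 (7.25 to 13.3) in air to 36.4 (16.8 to 68) in smoke, a change of 1.88 ± 0.30 (adjusted p = 0.00045). The gel-forming mucin Muc5ac was at 2.07 to 14.6 (median 6.5) in air and 7.39 to 24.4 (median 13.2) in smoke and did not pass (0.95 ± 0.39, adjusted p = 0.063). It passed without air insert 4 (adjusted p = 0.0247) or smoke insert 3 (adjusted p = 0.0445).

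**Figure D4:**
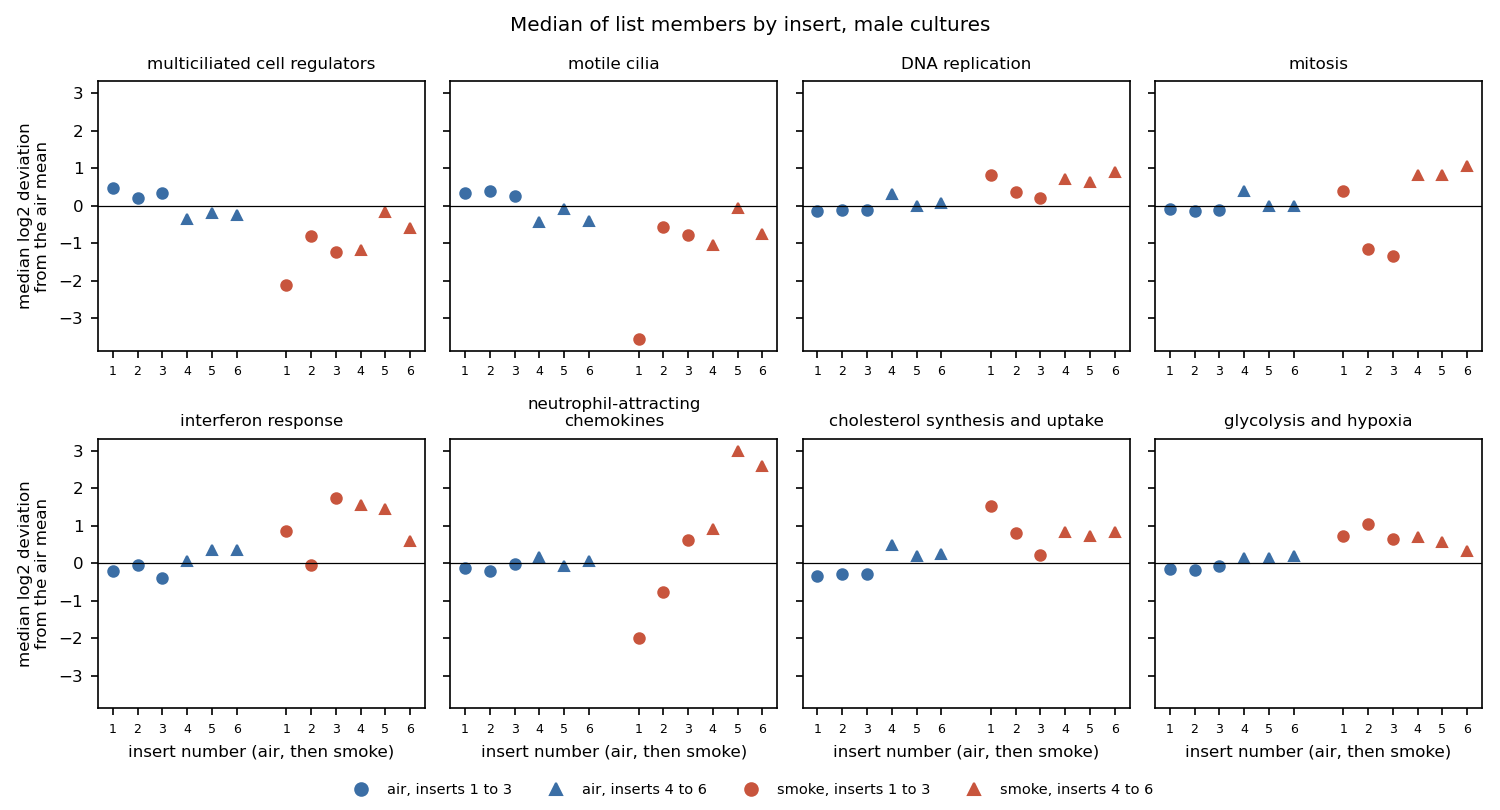
Median log2 deviation from the air mean over the members of 8 gene lists (y axis), for each of the 6 air (blue) and 6 smoke (red) inserts in order of insert number (x axis); circles are inserts 1 to 3 and triangles inserts 4 to 6. Replication, cholesterol and glycolysis medians are above 0 in all 6 smoke inserts, and mitosis and chemokine medians differ between the smoke inserts of the 2 sets.

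Over all 12 inserts more genes of ion and water transport fell than rose. Of 25 measured ion and water transport genes, 12 fell and 3 rose (5 without smoke insert 3). The share called was 60%, beside 46.1% in the table. In inserts 1 to 3 alone 11 fell and 3 rose, and in inserts 4 to 6 alone 11 fell and 9 rose. All 3 measured subunits of the epithelial sodium channel fell. Scnn1b fell from 768 (616 to 869) in air to 141 (77.6 to 147) in smoke, a change of -2.68 ± 0.18 (adjusted p = 2.2e-06). Scnn1g fell from 2417 (1876 to 2777) in air to 851 (447 to 1042) in smoke, a change of -1.59 ± 0.18 (adjusted p = 4.8e-05). Scnn1a fell from 25892 (22287 to 29765) in air to 16152 (10141 to 22265) in smoke, a change of -0.75 ± 0.17 (adjusted p = 0.0035). Their groups did not overlap, and the change of Scnn1b was -2.97 in inserts 1 to 3 and -2.38 in inserts 4 to 6. Ano1, the calcium-activated chloride channel, fell by 0.84 and the sodium-potassium-chloride cotransporter gene Slc12a2 by 0.64. Slc26a9, a chloride transporter of the apical side, rose from 44.9 (26 to 56.3) in air to 207 (88.7 to 277) in smoke, a change of 2.07 ± 0.28 (adjusted p = 0.00017). Slc26a4, the anion exchanger pendrin, was at 9.5 to 19.3 (median 15.7) in air and 0.883 to 91.9 (median 39.8) in smoke and did not pass (0.49 ± 0.85, adjusted p = 0.65). It was below the air range in smoke inserts 1 and 2 and above it in smoke inserts 3 to 6.

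Most measured keratin and squamous genes rose. Of 19 measured keratins, 12 rose and 1 fell (68.4% called, beside 46.1% in the table), with a median of 0.72. Krt6a, like Krt6b a keratin of wounded epithelium, rose from 1433 (1162 to 2721) in air to 17390.4 (9443 to 33795) in smoke, a change of 3.43 ± 0.36 (adjusted p = 2.7e-05), with no overlap. How reads were divided between these related genes was not tested. Krt16 was at 21.3 to 47.2 (median 29.4) in air and 34 to 452 (median 140.1) in smoke, where the lowest value, in insert 6, lay inside the air range (2.05 ± 0.51, adjusted p = 0.0065). The basal keratins Krt14 and Krt5 changed by 0.72 ± 0.15, adjusted p = 0.0025 and 0.65 ± 0.18, adjusted p = 0.013. Krt15 did not pass (-0.36 ± 0.24, adjusted p = 0.23). Krt1, a suprabasal keratin of skin, fell from 18.6 (10.2 to 33.1) in air to 9.59 (7.07 to 10.9) in smoke, a change of -0.95 ± 0.28 (adjusted p = 0.015). It did not pass with quantile scaling (adjusted p = 0.0569), with array quality weights (adjusted p = 0.0596) or in inserts 4 to 6 alone (-0.32, adjusted p = 0.492).

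Of 7 measured small proline-rich proteins, which are cross-linked into the cornified envelope, 6 rose and none fell (85.7% called, beside 46.1% in the table). Another 8 of the list of 15 lay below the mean of 10. Sprr2d and Sprr2h, with at most 1 read in air, reached that mean only through smoke and so could only be counted as rises. Sprr2d had no reads in any air insert and 10.3 to 67.7 (median 19.4) normalised counts in smoke, at least 65.1-fold higher against a floor of 3 reads over the air group. Sprr2h had 1 read over the 6 air inserts and 5.67 to 40.4 (median 29.9) in smoke, a ratio of 173 (95% counting interval 31.1 to 6846). Sprr1a rose from 109.8 (56.9 to 288) in air to 734 (436 to 2529) in smoke, a change of 2.71 ± 0.47 (adjusted p = 0.00077). Sprr3 did not pass, and its groups overlapped (1.60 ± 0.72, adjusted p = 0.085). It passed without air insert 6 (adjusted p = 0.0385). Sprr2 genes are near copies of each other, so reads may have been split among them. Of 37 other squamous and cornified envelope genes 21 were measured, and 13 of these rose and 2 fell (71.4% called, beside 46.1% in the table), with a median of 1.08. The remaining 16 lay below the mean of 10 or were not found under their symbol. Ivl, involucrin, rose from 28.1 (13.5 to 82.1) in air to 215 (88.6 to 1348) in smoke, a change of 2.92 ± 0.61 (adjusted p = 0.0024). Tgm1, the transglutaminase that cross-links the envelope, rose from 465 (397 to 513) in air to 1264 (789 to 3262) in smoke, a change of 1.51 ± 0.26 (adjusted p = 0.00085). Cnfn, cornifelin, rose from 7.34 (3.15 to 11.2) in air to 56.1 (23.5 to 277) in smoke, a change of 2.97 ± 0.54 (adjusted p = 0.0011). Cnfn too reached the mean of 10 only through smoke. Spink5, an inhibitor of the kallikreins of the cornified layer, fell from 3689 (3348 to 4469.5) in air to 1142 (254 to 1531) in smoke, a change of -2.07 ± 0.36 (adjusted p = 0.00076), while the kallikrein genes Klk8, Klk10, Klk11 and Klk13 rose by 2.19, 1.25, 1.08 and 1.28. Basal cell genes split, 5 up and 9 down of 22 (63.6% called, beside 46.1% in the table). Itga6, an integrin of the basal membrane, rose from 2216 (1974 to 2881) in air to 4332 (3069.9 to 8346) in smoke, a change of 1.01 ± 0.21 (adjusted p = 0.0024), Dapl1 fell by 2.06 on the log2 scale, and Trp63, the factor that defines basal cells, did not pass (-0.34 ± 0.17, adjusted p = 0.11).

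**Figure D5:**
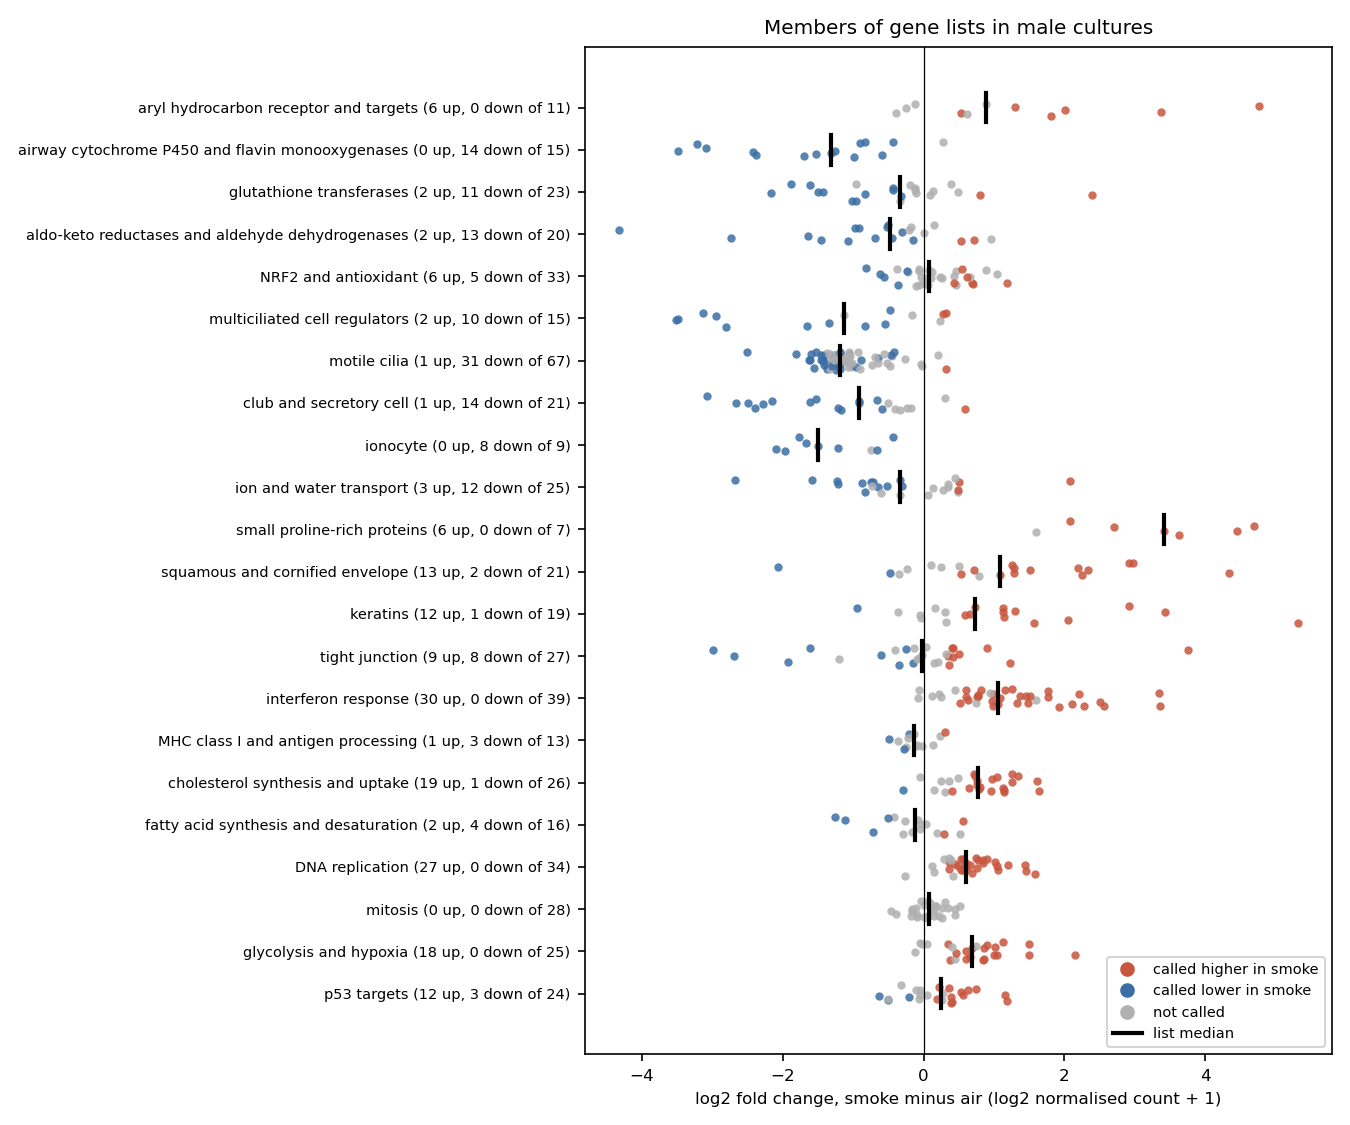
Log2 fold change of smoke against air (x axis) for every measured member of 22 gene lists (rows, with the number called up and down), coloured by call; black bars are list medians. Small proline-rich, squamous, keratin, interferon, cholesterol, replication and glycolysis lists lie mostly right of 0, and P450, cilia, club and ionocyte lists mostly left.

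Claudins and other tight junction genes moved both ways, 9 of 27 up and 8 down (63% called, beside 46.1% in the table). In 1 fit over all 24 libraries 10 were called. Cldn6, mainly an embryonic claudin, was at 5.18 to 37.1 (median 15.9) in air and 122 to 1041 (median 174) in smoke, highest in insert 1 (3.76 ± 0.56, adjusted p = 0.00029). Cldn4, a sealing claudin, rose from 9629 (7769 to 11339) in air to 14993 (11977 to 32447) in smoke, a change of 0.90 ± 0.23 (adjusted p = 0.007). Cldn2, which forms cation pores, fell from 284 (231 to 329) in air to 40.2 (35.5 to 56.7) in smoke, a change of -2.69 ± 0.14 (adjusted p = 3.5e-07). Cldn22 fell from 95.4 (70.9 to 121) in air to 11.3 (4.75 to 19.8) in smoke, a change of -2.995 ± 0.30 (adjusted p = 2.2e-05). Cldn8 fell from 2321 (1742 to 2678) in air to 631 (339 to 849) in smoke, a change of -1.93 ± 0.21 (adjusted p = 3.3e-05). No groups overlapped among these 5. Adherens and desmosome genes split as well, 6 up and 5 down of 22 (50% called, near the 46.1% of the table). Without air insert 1, 2 or 3 there were 3 up, and the fit over all 24 libraries called 6. Nectin3, an adhesion molecule of adherens junctions, fell from 413 (318 to 483) in air to 124 (79.2 to 146) in smoke, a change of -1.76 ± 0.15 (adjusted p = 8.6e-06). The cadherin Cdh2 fell by 1.57 on the log2 scale.

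Of 25 basement membrane and hemidesmosome genes, 11 rose and 5 fell (64% called, beside 46.1% in the table). The fit over all 24 libraries called 7. The 2 nidogens, which link laminin to collagen IV, moved apart. Nid1 rose from 18 (9 to 38.6) in air to 135 (101 to 587) in smoke, a change of 3.18 ± 0.43 (adjusted p = 0.00016), and Nid2 fell from 83.4 (76.5 to 95.6) in air to 21.2 (14.8 to 30.9) in smoke, a change of -1.97 ± 0.18 (adjusted p = 1.3e-05). Neither gene's groups overlapped, and each change had the same sign in both sets. The laminin gene Lama3 rose (1.11 ± 0.18) and Lamb2 fell (-0.82 ± 0.16); the collagen IV genes Col4a1 rose (1.02 ± 0.29) and Col4a6 fell (-1.005 ± 0.27). Of 18 matrix protease and inhibitor genes, 7 rose and 2 fell (50% called, near the 46.1% of the table), the rises including both plasminogen activators. Plat, tissue-type activator, rose from 743 (459.9 to 1422) in air to 5043 (2189.8 to 7524) in smoke, a change of 2.50 ± 0.38 (adjusted p = 0.00032). Plau, urokinase, rose from 145 (120.2 to 179) in air to 529.9 (285 to 691) in smoke, a change of 1.68 ± 0.21 (adjusted p = 0.00011). Timp3, a metalloprotease inhibitor, fell from 4774 (4159.9 to 5560.2) in air to 2192 (1401 to 3527) in smoke, a change of -1.14 ± 0.18 (adjusted p = 0.0005). Of 35 actin cytoskeleton genes, 16 rose and 1 fell (48.6% called, near the 46.1% of the table). With all 24 libraries in 1 fit the number called was 11. The tropomyosin gene Tpm2 rose from 310.2 (282 to 341) in air to 1041 (873 to 2074) in smoke, a change of 1.89 ± 0.17 (adjusted p = 1.1e-05) and the filamin gene Flna by 0.97. Myh14, a nonmuscle myosin, fell by 0.87 on the log2 scale.

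Several chemokines had changes of opposite sign in the 2 insert sets, a difference that was not tested. Of 7 neutrophil-attracting chemokines 3 rose and 2 fell (71.4% called, beside 46.1% in the table). The direction was the same in both sets for 5 of the 7. Cxcl3 rose from 70.5 (60.6 to 105) in air to 365 (117 to 709.9) in smoke, a change of 2.08 ± 0.37 (adjusted p = 0.00096), and Cxcl5 was at 3823 to 5466 (median 4323) in air and 4307 to 35404 (median 20856) in smoke, with overlap (1.75 ± 0.45, adjusted p = 0.0076). Cxcl1 was at 1277 to 2539.9 (median 1898) in air and 388 to 10159.9 (median 2812) in smoke and did not pass (0.33 ± 0.71, adjusted p = 0.72). Its change was -1.01 in inserts 1 to 3 (adjusted p = 0.19) and 1.67 in inserts 4 to 6 (adjusted p = 0.0046). Cxcl2, a close relative, changed by -1.20 (adjusted p = 0.26) and 2.24 in the 2 sets and did not pass over all 12 (0.52 ± 0.98, adjusted p = 0.68). Ccl20, a chemokine for dendritic and Th17 cells, did not pass over all 12 either (-0.64 ± 0.84, adjusted p = 0.55). It passed in each set alone with opposite signs, -2.72 (adjusted p = 0.0059) and 1.44 (adjusted p = 0.0471). Cxcl15, a lung-enriched chemokine, fell from 4292 (3675 to 5351) in air to 1178 (235 to 3091) in smoke, a change of -2.13 ± 0.51 (adjusted p = 0.0051), and Cxcl17, of mucosal surfaces, by 0.97 on the log2 scale. The median of the 7 chemokines was -1.01 in inserts 1 to 3 and 2.24 in inserts 4 to 6. Over all 12 inserts it was 0.52. It was -0.10 without smoke insert 5, -0.06 without smoke insert 6, 1.05 without smoke insert 1 and 1.17 without smoke insert 2.

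Of 22 other cytokines and mediators, 11 rose and 2 fell (59.1% called, beside 46.1% in the table). Csf3, the granulocyte colony-stimulating factor, rose from 331 (166 to 451) in air to 1961 (655 to 4088) in smoke, a change of 2.61 ± 0.47 (adjusted p = 0.00095). Ccl5 rose from 1.86 (0 to 4.38) in air to 24.6 (10.3 to 48.4) in smoke, a change of 3.21 ± 0.48 (adjusted p = 0.00032), with no overlap. It reached the mean of 10 only through smoke and so could only be counted as a rise. Il33, an epithelial alarmin, was at 224 to 684 (median 401) in air and 537 to 2812 (median 2399) in smoke, where insert 3 lay inside the air range (2.09 ± 0.42, adjusted p = 0.002). Vcam1, an adhesion molecule for leukocytes, was at 529.8 to 921 (median 718) in air and 68 to 634 (median 131) in smoke (-2.16 ± 0.45, adjusted p = 0.0024). Antimicrobial genes split, 6 up and 2 down of 15 (53.3% called, beside 46.1% in the table). In inserts 1 to 3 alone 5 rose and 5 fell, and in inserts 4 to 6 alone 9 rose and 3 fell. S100a9, a calprotectin subunit, had 2 reads over the air inserts and 12.1 to 47.7 (median 15.7) normalised counts in smoke, a ratio of 68.2 (95% counting interval 18.9 to 564). S100a9 too passed the mean of 10 only through smoke. Slpi, a secreted antiprotease, rose from 306 (262 to 342) in air to 1199.6 (705 to 2760.0) in smoke, a change of 2.05 ± 0.29 (adjusted p = 0.00021). Of 15 leukocyte markers 7 were measured, and 3 of these were called (42.9%, near the 46.1% of the table). Itgam, an integrin of myeloid cells, rose from 30 (12.9 to 60.7) in air to 149 (85.6 to 436) in smoke, a change of 2.61 ± 0.45 (adjusted p = 0.00074), the lysosomal gene Cd68 rose by 1.53, Gpnmb fell and 4 were not called. Over the 15 markers the summed level was 30708 to 40853 in air and 5807 to 44489 in smoke, with Ptprc at most 8.31 and Ms4a1 at 0. The part of leukocytes in these results was not tested.

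Most interferon-stimulated genes rose. Of 39 measured, 30 rose and none fell (76.9% called), with a median of 1.06, of 1.17 in inserts 1 to 3 and of 0.93 in inserts 4 to 6. Within inserts 1 to 3 alone 19 rose and 1 fell, and within inserts 4 to 6 alone 34 rose and none fell. The groups did not overlap for 9 of the 39, all with smoke above air. Over all genes tested 25.6% did not overlap, and 11.2% had smoke above air without overlap. Oasl1, an antiviral oligoadenylate synthetase relative, rose from 52.3 (26.5 to 65.8) in air to 523 (268 to 1028) in smoke, a change of 3.36 ± 0.32 (adjusted p = 1.7e-05). Rsad2, viperin, rose from 26.4 (4.42 to 53.3) in air to 236 (73.7 to 1384) in smoke, a change of 3.34 ± 0.69 (adjusted p = 0.0023). Isg15, a ubiquitin-like modifier, rose from 102 (43.1 to 185) in air to 785 (226 to 1545) in smoke, a change of 2.56 ± 0.46 (adjusted p = 0.00094). These 3 did not overlap between groups. Oas3 was at 59 to 186 (median 95.6) in air and 161 to 866 (median 596) in smoke, where insert 2 lay inside the air range (2.20 ± 0.47, adjusted p = 0.0026). Ifit1, another classical member, was at 1302 to 1982 (median 1702) in air and 608 to 2778 (median 1903) in smoke and did not pass (-0.08 ± 0.35, adjusted p = 0.85). Smoke insert 2 had the lowest interferon expression of the smoke group, with a list median of -0.04 from the air mean, against 0.60 to 1.75 in the others.

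Promoters were searched for GAAANNGAA, the core letters of the interferon-stimulated response element, to show the sequence beside these responses. The search ran on both strands in the 250 bases before the gene start, from RefSeq on GRCm38.p6, which is mm10. A window was used where its start lay within 100 bases of the deposited gene start, which gave 10229 of the 13262 genes and 28 of the 39 interferon genes. The letters were found in 15 of the 28 windows (53.6%) and in 6.1% of all 10229. Among interferon genes that rose they were in 11 of 20 windows, and among those that did not in 4 of 8. The antioxidant element core TGACNNNGC was in 7 of 28 windows of the NRF2 list, among them 1 of the 4 that rose, and in 12.2% of all windows. The sterol element core TCACNCCAC was in 1 of 18 windows of the cholesterol list (5.56%) and in 0.958% of all. The aryl hydrocarbon receptor core GCGTG, which is common by its length, was in 5 of 8 windows of that list (62.5%) and in 45.9% of all windows. Overlapping matches were counted separately and share their capitals. The windows below are those of Isg15, Oas3 and Ifit1, the last with matches although the gene was not called, and of Ahrr; capitals mark the matches.
Isg15, chr4:156200819-156201068, reverse strand: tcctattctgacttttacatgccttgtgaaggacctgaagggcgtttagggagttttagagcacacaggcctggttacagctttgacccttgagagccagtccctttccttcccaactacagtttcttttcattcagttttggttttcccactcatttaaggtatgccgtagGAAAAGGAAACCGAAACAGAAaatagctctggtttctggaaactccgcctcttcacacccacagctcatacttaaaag
Oas3, chr5:120777660-120777909, reverse strand: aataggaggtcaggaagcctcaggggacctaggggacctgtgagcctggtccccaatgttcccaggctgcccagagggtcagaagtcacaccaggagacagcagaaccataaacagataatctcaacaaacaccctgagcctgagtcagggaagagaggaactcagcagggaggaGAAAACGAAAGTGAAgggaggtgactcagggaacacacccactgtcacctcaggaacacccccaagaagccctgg
Ifit1, chr19:34640639-34640888, forward strand: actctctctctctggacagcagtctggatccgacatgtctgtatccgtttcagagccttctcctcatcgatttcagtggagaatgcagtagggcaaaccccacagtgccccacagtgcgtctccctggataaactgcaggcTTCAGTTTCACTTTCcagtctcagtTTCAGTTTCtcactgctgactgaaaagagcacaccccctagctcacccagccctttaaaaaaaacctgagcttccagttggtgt
Ahrr, chr13:74292332-74292581, reverse strand: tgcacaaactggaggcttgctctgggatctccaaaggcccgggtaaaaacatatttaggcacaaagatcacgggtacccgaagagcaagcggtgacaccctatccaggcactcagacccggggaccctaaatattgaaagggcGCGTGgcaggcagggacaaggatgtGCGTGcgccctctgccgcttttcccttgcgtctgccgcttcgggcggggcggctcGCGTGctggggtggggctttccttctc
Isg15 and Ifit1 each hold 3 matches and Oas3 holds 2, and Ahrr holds 3 of the receptor core. A match is a description of the letters and was not tested as a binding site.

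Genes of MHC class I presentation, many of them also known to respond to interferon, showed no common rise. Of 13 measured, 1 rose (3 without smoke insert 2) and 3 fell (2 called in the fit over all 24 libraries), with a median of -0.14. The share called was 30.8%, beside 46.1% in the table. The median was -0.05 without smoke insert 1, -0.04 without smoke insert 2 and -0.24 without smoke insert 5. In inserts 1 to 3 alone 0 rose and 5 fell (median -0.28), and in inserts 4 to 6 alone 2 rose and 1 fell (median 0.10). For 9 of the 13, smoke inserts 1 to 3 all lay below smoke inserts 4 to 6. H2-K1 was at 4737 to 6384 (median 5358) in air and 3499 to 6443 (median 5459) in smoke (-0.09 ± 0.14, adjusted p = 0.61). Irf7, which responds to type I interferon, was at 356 to 576 (median 434) in air and 469.8 to 2024 (median 1546) in smoke (1.46 ± 0.30, adjusted p = 0.0024).

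Cholesterol genes rose. Of 26 measured genes of cholesterol synthesis and uptake, 19 rose and 1 fell (76.9% called, beside 46.1% in the table), with a median of 0.77. Idi1, an isomerase that makes isoprenoid units, rose from 368 (238 to 570.3) in air to 1028 (709 to 2098) in smoke, a change of 1.61 ± 0.27 (adjusted p = 0.00068). Hsd17b7 rose from 323 (223 to 505) in air to 925 (751 to 1938) in smoke, a change of 1.63 ± 0.25 (adjusted p = 0.00031). Their groups did not overlap, and smoke insert 1 was highest for both. Of 16 fatty acid synthesis and desaturation genes 2 rose (4 without smoke insert 3) and 4 fell (37.5% called, beside 46.1% in the table), and 10 were called in inserts 4 to 6 alone. Scd1, the stearoyl-CoA desaturase, fell from 14802 (11436 to 16916) in air to 6508 (4518 to 8965) in smoke, a change of -1.11 ± 0.16 (adjusted p = 0.00021). Acacb, the mitochondrial acetyl-CoA carboxylase, fell from 109.8 (66.5 to 134) in air to 43.9 (26.8 to 54.7) in smoke, a change of -1.25 ± 0.21 (adjusted p = 0.00071). Srebf1, the regulator that favours fatty acid genes, fell (-0.51 ± 0.10, adjusted p = 0.0017).

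Replication genes rose while mitotic genes showed no change that held over all 12 inserts. Of 34 DNA replication genes, 27 rose and none fell (79.4% called), with a median of 0.60; with 1 fit over all 24 libraries 12 rose. Orc1, of the origin recognition complex, rose from 26.9 (18.6 to 42.7) in air to 83.5 (59.1 to 129.5) in smoke, a change of 1.58 ± 0.25 (adjusted p = 0.00047), and Mcm3, of the replicative helicase, was at 349 to 593 (median 382) in air and 569 to 1015 (median 915) in smoke (1.02 ± 0.16, adjusted p = 0.00048). Cdc6, which loads that helicase, changed by 1.45 ± 0.30, adjusted p = 0.0023, and Ccne1, cyclin E1, by 1.43 ± 0.33, adjusted p = 0.0043. Of 28 mitosis genes none was called by limma over all 12 inserts, and edgeR and DESeq2 on the recovered reads called 0 and 0. At an unadjusted p under 0.05 limma had 0, and with array quality weights, which down-weight variable inserts, 12 rose. The sets had medians of opposite sign. All 28 rose in inserts 4 to 6, where the median was 0.78, and in inserts 1 to 3 none passed and the median was -0.60. Ccnb1, cyclin B1, was at 263 to 427 (median 319) in air. In smoke it was at 402, 97.4 and 72 in inserts 1 to 3 and at 623, 604 and 758 in inserts 4 to 6 (-0.09 ± 0.54, adjusted p = 0.9 over all 12). Smoke inserts 2 and 3 were the low ones, with list medians of -1.15 and -1.35 from the air mean, while insert 1 was at 0.40.

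Of 24 p53 target genes, 12 rose and 3 fell (62.5% called, beside 46.1% in the table). In 1 fit over all 24 libraries 7 were called. Cdkn1a, the p21 inhibitor of the cell cycle, rose from 9767 (8572 to 11065) in air to 13226 (12152 to 20849) in smoke, a change of 0.56 ± 0.13 (adjusted p = 0.0041). Mdm2, which degrades p53, rose from 2357 (2018 to 2413) in air to 3659.8 (2776 to 5559) in smoke, a change of 0.75 ± 0.16 (adjusted p = 0.0031). Pmaip1, the death factor Noxa, rose from 925 (704 to 1389) in air to 1941 (1479.9 to 5002) in smoke, a change of 1.18 ± 0.27 (adjusted p = 0.0037). Their groups did not overlap, and for each the highest smoke value was in insert 3. Bbc3, the death factor Puma, fell by 0.51 on the log2 scale (adjusted p = 0.017).

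Glycolysis and hypoxia genes rose, 18 of 25 with none down (72% called, beside 46.1% in the table) and a median of 0.68. Egln3, a hypoxia-induced prolyl hydroxylase, rose from 297 (114 to 503) in air to 1222 (666 to 1734) in smoke, a change of 2.15 ± 0.38 (adjusted p = 0.00083). Ldha, lactate dehydrogenase, rose from 9071 (8116 to 10339) in air to 18098 (15216 to 25944) in smoke, a change of 1.01 ± 0.12 (adjusted p = 8e-05). Adm, adrenomedullin, rose from 143 (66.5 to 221) in air to 376 (239 to 625) in smoke, a change of 1.49 ± 0.32 (adjusted p = 0.0029). None of these groups overlapped. Vegfa, another hypoxia target, did not pass (-0.13 ± 0.10, adjusted p = 0.3). Of 40 oxidative phosphorylation genes 2 rose and 11 fell, a share of 32.5% beside the 46.1% of the table. The number called was 4 in inserts 4 to 6 alone and 1 in the fit over all 24 libraries. Sdha fell by 0.31 on the log2 scale. Ribosomal protein genes rose slightly, 17 of 29 (58.6% called, beside 46.1% in the table) with a median of 0.22. The number was 4 with quantile scaling, 11 with library total scaling, 0 with 1 fit over all 24 libraries, and 11, 11 and 10 without air insert 2, 5 and 6.

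Of 27 endoplasmic reticulum and integrated stress response genes, 16 rose and 2 fell (66.7% called, beside 46.1% in the table), with a median of 0.43. The fit over all 24 libraries called 8. Hspa5, the chaperone BiP, rose from 10122 (9401 to 10823) in air to 14759.9 (13020.1 to 24899.9) in smoke, a change of 0.66 ± 0.13 (adjusted p = 0.0019). Ddit4, a stress-induced brake on mTORC1, rose from 1221 (1096 to 1456) in air to 2312 (1683 to 4201) in smoke, a change of 0.95 ± 0.19 (adjusted p = 0.002). Xbp1 fell by 0.38 on the log2 scale. Of 14 measured genes of the EGF receptor family and its ligands, 5 rose and 3 fell (57.1% called), with 5 called in 1 fit over all 24 libraries and 4 in inserts 4 to 6 alone. The ligand gene Nrg1 rose from 844 (753 to 1072) in air to 1512 (1169.6 to 2523) in smoke, a change of 0.84 ± 0.16 (adjusted p = 0.0012) and the receptor gene Erbb3 fell by 0.43. Of 19 genes of the TGF-beta pathway and epithelial-mesenchymal transition, 4 rose and 4 fell (42.1% called), and 2 were called in 1 fit over all 24 libraries. Bmp4 fell from 523 (460.1 to 591) in air to 212 (70.7 to 358) in smoke, a change of -1.42 ± 0.33 (adjusted p = 0.0043). Of 12 Notch pathway genes 1 rose and 2 fell (25% called, beside 46.1% in the table). In 1 fit over all 24 libraries 1 was called, and edgeR and DESeq2 each called 5. Hey1, a Notch target, fell from 277 (244 to 313) in air to 73.9 (48.6 to 179.9) in smoke, a change of -1.78 ± 0.28 (adjusted p = 0.00045). The receptor gene Notch3 fell from 2212 (2114 to 2534) in air to 1229.6 (686 to 1933) in smoke, a change of -0.97 ± 0.19 (adjusted p = 0.0016).

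Female-derived cultures of the same strain, grown and exposed by the same protocol with 6 inserts in air and 6 in smoke, were used only to ask where the male response differed. The difference between the male and the female log2 fold change passed for 124 of the 13262 genes (0.935%) in a fit over all 24 libraries. It passed for 6 of the 23 large male changes described first. These genes were picked for a large male change, and so a difference toward the male side is a description here. The smoke response of Ppbp was 3.64 ± 0.61, adjusted p = 0.0045 greater in male cultures, where the female change was 3.63. Myl7 differed by 4.31 ± 0.78, adjusted p = 0.0068 and Pglyrp4 by 2.40 ± 0.57, adjusted p = 0.044. With 5 added in place of 1 the difference for Pglyrp4 was 0.80 and did not pass (adjusted p = 0.375). Among the falls, Gpnmb differed by -4.01 ± 0.74, adjusted p = 0.0084, Aspg by -2.42 ± 0.36, adjusted p = 0.002 and Fads2b by -2.39 ± 0.39, adjusted p = 0.0037. The female change was 0.68 for Gpnmb and -0.87 for Fads2b. Of other genes named above, Scd1 fell in male cultures and had a change of 1.36 in female ones (-2.47 ± 0.29, adjusted p = 0.00011), and Spink5 differed by -3.29 ± 0.50, adjusted p = 0.0023, with a female change of 1.22. Scnn1b (-2.16 ± 0.48, adjusted p = 0.03) and Scnn1g (-1.72 ± 0.37, adjusted p = 0.025) fell further in male cultures. Sprr2f, a small proline-rich gene, rose by 3.63 in male and 7.41 in female cultures (-3.78 ± 0.64, adjusted p = 0.0049), fitted changes that depend on the count of 1 added, since it had 5 reads over the 6 male air inserts. Cyp1a1 changed by 4.76 in male and 4.65 in female cultures and did not pass (0.10 ± 0.89, adjusted p = 0.98). Female air insert 1 and female smoke insert 4, flagged for a trend with gene length, are included in these results. They were left out as an alternative, and then 794 genes differed, and 9 of those 23.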

How the data were processed

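RNA was sequenced from 12 male-derived cultures, 6 under smoke and 6 under air. The authors deposited gene counts normalised with DESeq2, per the labels, and their unit is a signal: reads divided by 1 size factor per library. Per the submitters' processing notes, the tools were DESeq2, HTSeq, Trimmomatic 0.38.0 and FastQC 0.11.9, and the mouse build was mm10 (GRCm38). The sources used here give neither aligner nor strand setting, so overlapping and antisense genes may share reads. Gene starts and ends are those of the authors' deposited table, which also holds the authors' log2 fold changes and p-values, per the file headers. That table calls 6469 of the genes tested; 5914 of them were also called here, all with the same sign.

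Samples were grouped by their titles. Values were taken as log2(value + 1), so fold changes of low genes are understated. Genes with a mean of at least 10 were fitted with limma 3.58.1 (R 4.3.3, empirical Bayes with a trend, two-sided, Benjamini-Hochberg adjustment over 13262 genes). Errors are standard errors of the log2 fold change with 6 inserts a group, and levels are the lowest, highest and median insert. The difference between male and female responses is a contrast in a fit over 24 libraries. All values were whole multiples of 1 step in 11 of the 12 libraries (within 0.001), which gave reads for edgeR 4.0.16 and DESeq2 1.42.0; smoke insert 5 could not be used there. Counting intervals and the floor of 3 reads cover counting error only. The fit was tested on simulated data. Among pairs of the same group in those 11 libraries, none agreed within sampling noise (chi-square per degree of freedom of at least 2.89). Smoke insert 5 was not compared in this way. Each insert was counted once.

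Genes were named by a rule: the 12 largest rises and 12 largest falls among those called, not overlapping and with a group mean of 50 or more in smoke or air, without predicted models, then up to 3 called members of each list in each direction. Other list members served as examples, and the values of some genes that met the rule are not reported here. The members, the 45 lists and the tests were chosen with earlier results of these data known.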

Additional observations from a re-analysis of the deposited data

Results flagged for a closer look

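Among the 338 groups of 6 inserts behind the 169 genes named, 18 held an insert set apart from the rest: the gap from the highest or lowest insert to its neighbour was over 0.625 of the group's range. Chance alone sets off about 5% of groups. Smoke insert 1 accounted for 9 of the 18. It was the highest insert for Bcl2l15 (704 normalised counts, next 172), Cldn6 (1041, next 203), Il24 (213, next 35.1), Nid1 (587, next 193), Ptpn22 (325, next 61.0), Sprr3 (181, next 33.2), Tgm1 (3262, next 1294) and Hsd17b7 (1938, next 1010.5), and the lowest for Foxj1 (103, next 529). Other smoke inserts set apart were insert 4 for Dcn (0, next 5.30), insert 3 for Hspa5 (24900, next 16539) and insert 6 for Sprr2h (5.67, next 20.8). In air they were insert 4 for Akr1b8 (796, next 858) and Mcm3 (593, next 414), insert 2 for Cxcl3 (105, next 74.0), Reg3g (821, next 1103) and Sprr2h (1.07, which is 1 read, with 0 in the others), and insert 3 for Rsad2 (4.42, next 22.8).

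The male and female smoke responses differed for 11 named genes in the limma contrast over 24 libraries. On the log2 scale the male minus female difference was 3.64 for Ppbp, 4.31 for Myl7, 2.40 for Pglyrp4, -4.01 for Gpnmb, -2.42 for Aspg, -2.39 for Fads2b, -2.47 for Scd1, -3.29 for Spink5, -2.16 for Scnn1b, -1.72 for Scnn1g and -3.78 for Sprr2f. With 5 added in place of 1 the difference for Pglyrp4 was 0.80 and did not pass (adjusted p = 0.375).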

How the results depend on the processing

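The number of genes called, 6109, stayed within 1.5 times under every alternative tried but 1: with 1 fit over all 24 libraries, which pools the spread of the female cultures, it was 2956. Leaving out 1 insert gave 5019 to 6188, and edgeR and DESeq2 on recovered reads gave 6287 and 6814. The difference between male and female responses, 124 genes, became 794 without female air insert 1 and female smoke insert 4 and 189 with quantile scaling. Of 2028 single-gene fits that left out 1 insert, 1998 kept direction and call, and of 2675 under other alternatives 2591 did. Among called genes, inserts 1 to 3 alone did not call Ccne1, Cxcl3, Cxcl5, Klk10, Klk11, Klk13, Krt5, Scnn1a, Slc7a11 and Pdgfra, and inserts 4 to 6 alone did not call Bbc3, Cftr, Col4a6, Dnah5, Fmo1, Krt1, Krt16, Scgb1a1, Sftpa1, Vcam1 and Pdgfra. Among genes that had not passed, Ahr passed with quantile scaling, edgeR and DESeq2, Cyp3a13 with edgeR and DESeq2, Sprr3 with DESeq2, Muc5ac with quantile scaling, and Foxj1, Muc5ac, Cxcl1 and Slc26a4 with array quality weights. In an insert set alone Ahr, Cyp3a13 and Sprr3 (inserts 1 to 3) and Ccnb1, Cxcl1 and Slc26a4 (inserts 4 to 6) passed. Hmox1, Nqo1 and Ccl20 passed in each set alone, Ccl20 with opposite signs. Changes of sign in the smoke response were limited to 8 genes that had not passed over all 12 inserts. Of the changed signs, those of Ccl20 (adjusted p = 0.0471) and Ccnb1 (adjusted p = 0.00072) passed in inserts 4 to 6 alone. With inserts 1 to 3 alone they were -1.01 for Cxcl1, -1.20 for Cxcl2 and -1.45 for Slc26a4. With inserts 4 to 6 alone they were 1.44 for Ccl20, 0.83 for Ccnb1, 0.26 for Ifit1 and -0.0096 for Cyp3a13. With array quality weights they were 0.57 for Ccl20, 0.68 for Ccnb1, 0.083 for Ifit1 and 0.011 for H2-K1. Ccnb1 was 0.022 with quantile scaling, 0.25 and 0.26 with edgeR (with and without its filter) and 0.27 with DESeq2. Over the fits without 1 insert, Ccnb1 ranged from -0.35 to 0.33 (above 0 without smoke insert 2 or 3), Ifit1 from -0.25 to 0.18 (above 0 without smoke insert 1 or 2), Cxcl1 from -0.095 to 0.85 and Cxcl2 from -0.12 to 1.17 (both below 0 without smoke insert 5 or 6), and H2-K1 was 0.014 without smoke insert 2. The difference for Cyp1a1 was -0.26 without those 2 female libraries. The cause of these changes was not tested.

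Same-numbered inserts of the 2 groups did not deviate together (correlations of -0.26, 0.12, 0.03, 0.10, -0.08 and -0.16), so the numbers were not taken as pairs. With the replicate block 5182 genes were called for smoke against air and 91 for the male minus female difference, and 19 motile cilia genes fell. Under the block Hmox1 (adjusted p = 0.0247), Nqo1 (adjusted p = 0.0108) and Muc5ac (adjusted p = 0.039) passed, and the male minus female differences of Pglyrp4 (adjusted p = 0.0599) and Scnn1b (adjusted p = 0.069) did not; no other named gene changed its call. Inserts with no named donor, 2 insert sets of unknown origin and bulk RNA limit what the p-values cover. Genes with few reads in air, among them Sprr2d and Sprr2h, have folds that depth bounds only from below or within wide intervals.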
